A study of Mus musculus with 54 samples.

Results

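The Cyp4a genes described here are Cyp4a10, Cyp4a14, Cyp4a31, Cyp4a12a and Cyp4a12b, chosen by their gene symbols in the deposited expression table, where they are 5 of 20162 rows. Liver mRNA was measured in 54 male C57BL/6J mice, each 1 library, which ate a high-fat diet from 8 weeks of age and swallowed a daily gelatin pellet for 20 weeks. The pellets held the plasticizer di-isononyl phthalate (DINP) in the 3 exposed groups: the low dose was 1.5 mg/kg bw/d (13 mice), the mid dose 15 (13 mice) and the high dose 150 (14 mice). The 14 control mice swallowed a placebo pellet. All mice were wild type and housed singly, and all 4 groups ate the high-fat diet, so the data hold no comparison with a chow diet. The comparisons ask at which dose the Cyp4a genes changed, whether they changed alike, and which other genes of fatty acid oxidation changed beside them.

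CYP4A enzymes are cytochromes P450 of the endoplasmic reticulum that hydroxylate fatty acids at the terminal (omega) carbon. They take electrons from NADPH through cytochrome P450 reductase (Por), and their products can be oxidised by alcohol and aldehyde dehydrogenases to dicarboxylic acids, which are shortened in peroxisomes. In rodent liver, Cyp4a10 and Cyp4a14 are textbook target genes of the fatty acid receptor PPARα, whereas Cyp4a12a is known for its higher expression in males and for the hydroxylation of arachidonic acid.

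The 5 genes lie in 1 cluster on mouse chromosome 4 (GRCm38, GENCODE annotation). Cyp4a12a (chr4:115299046-115332815) and Cyp4a12b (chr4:115411624-115439034) stand at one end, followed by Cyp4a14 (chr4:115486200-115496142), Cyp4a10 (chr4:115518264-115533649) and Cyp4a31 (chr4:115563649-115579015). Cyp4a14 is on the minus strand and the other members are on the plus strand. Their coding sequences form 2 pairs of close relatives: Cyp4a12a and Cyp4a12b were 98.6% identical and Cyp4a10 and Cyp4a31 96.6% identical, while the other pairs of members shared 76.0% to 80.7%. The coding stretch around the haem-binding cysteine, which carries the iron that activates oxygen in every P450, shows how alike the members are. It is printed 5′ to 3′ on the coding strand, joined across the boundary of exons 11 and 12, with capitals where a base differs from Cyp4a10.
Cyp4a10: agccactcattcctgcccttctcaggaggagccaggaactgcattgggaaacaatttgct
Cyp4a31: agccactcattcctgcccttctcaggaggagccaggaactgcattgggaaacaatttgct
Cyp4a14: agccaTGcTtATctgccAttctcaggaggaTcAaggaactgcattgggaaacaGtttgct
Cyp4a12a: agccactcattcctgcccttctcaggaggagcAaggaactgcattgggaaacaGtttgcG
Cyp4a12b: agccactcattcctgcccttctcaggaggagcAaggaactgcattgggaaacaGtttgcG
Over these 60 bases the members of each close pair were the same, Cyp4a14 differed from Cyp4a10 at 9 bases, and the Cyp4a12 pair differed from Cyp4a10 at 3. The stretch runs from chr4:115529484 to chr4:115532555 in Cyp4a10 and from chr4:115328968 to chr4:115331858 in Cyp4a12a, introns included.

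The likeness of the members bears on their separate values, because the libraries were read from the 3′ ends of transcripts. Of the 426 windows of 75 bases in the last 500 bases of the transcript, 139 (32.6%) were the same in Cyp4a12a and Cyp4a12b. Cyp4a10 and Cyp4a31 shared 2 such windows (0.469%), and Cyp4a14 shared none with another member. The window length was set for this comparison and is not the read length of the libraries. These percentages therefore do not give the part of shared reads. How the authors' quantification split reads between near-identical copies was not tested, so the separate values of Cyp4a12a and Cyp4a12b, and the low values of Cyp4a31 beside its abundant relative, are less certain than their sums. The values are labelled TPM, a relative abundance per transcript length. They were read here as rounded and scaled between samples, since they come out as whole multiples of a step particular to the sample. The paper does not state this. In libraries read from 3′ ends, the reads per transcript need not rise with its length. The transcripts used here had 2109 (Cyp4a10) to 2509 (Cyp4a31) bases, so levels and shares of different members are approximate. The read depth is not kept in the values and no counting error can be given.

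Cyp4a14 and Cyp4a10 were the abundant members and all 5 were detected in liver. In the control mice, Cyp4a14 made up 66.9% ± 6.42 (SD, n = 14) of the summed values of the family, Cyp4a10 22.8% ± 3.78 and Cyp4a12a 8.56% ± 5.06. Cyp4a12b and Cyp4a31 were minor members with 0.988% ± 1.22 and 0.656% ± 0.556. Per mouse, the value of Cyp4a31 was 1.09% to 9.84% of that of Cyp4a10 in the control group, with a median of 2.26%. That of Cyp4a12b was 2.74% to 26.2% of Cyp4a12a, with a median of 7.68%. The shares of Cyp4a14 (56.0% to 75.8%) and Cyp4a10 (14.6% to 30.5%) did not overlap between mice, those of Cyp4a10 and Cyp4a12a (2.65% to 18.1%) overlapped at their ends, and those of Cyp4a12b and Cyp4a31 overlapped widely. The other Cyp4a gene of the cluster in the table, Cyp4a32, was listed at 0 in 13 of 14 control mice.

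Cyp4a10 was upregulated by the highest dose. Its lowest, median and highest values were 37.5, 126 and 179 in the control group, and 204, 381 and 705 at the high dose. Every mouse of the high-dose group was above every control mouse. At the low dose the values were 22.9, 149 and 278, and at the mid dose 54.1, 128 and 188, so that both lower doses overlapped the control range. The mean rose from 120.1 ± 41.7 (SD, n = 14) to 398 ± 138 (n = 14), a log2 fold change (log2FC) of 1.76 on the log2(value + 1) scale (standard error 0.245, limma, Benjamini-Hochberg adjusted p = 3.25e-06).

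Cyp4a14, the most abundant member, changed in the same way. Its lowest, median and highest values were 105, 345 and 583 in the control group, and 864, 1111 and 1809.9 at the high dose. The 2 groups did not overlap, since the lowest of the high-dose mice was above the highest control mouse. The values at the mid dose were 83.3, 272 and 429.7, with 1 of 13 mice above the control median. At the low dose they were 17.7, 315 and 938, a 52.9-fold range that was the widest of the 4 groups. The log2FC at the high dose was 1.84 (standard error 0.303, limma adjusted p = 7.28e-05).

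Cyp4a31 was close to the detection limit of the table in the unexposed liver. Its lowest, median and highest values were 0.977, 2.84 and 7.07 in the control group, where 1 rounding step of the table is 0.764 to 1.11. At the high dose they were 5.91, 11.8 and 20.9, and 13 of 14 mice were above the highest control mouse. The lower doses had values of 1.05, 3.58 and 6.67 (low dose) and 0.951, 2.21 and 5.48 (mid dose), with no mouse above the highest control. The log2FC at the highest dose was 1.73 (standard error 0.203, limma adjusted p = 4.97e-08), and it depended on the pseudocount (2.06 with 0.1, 1.08 with 5). As a share of Cyp4a10 in the same mouse, Cyp4a31 was 1.99% to 5.08% at the high dose, within the range of the control group.

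Cyp4a12a rose at the same dose from a lower level and with more overlap. Its lowest, median and highest values were 15.9, 29.7 and 128 in the control group, and 50.0, 139 and 221 at the high dose. All 14 high-dose mice were above the control median, but 8 of them were above the highest control mouse. That control mouse, replicate 9, was high for both members of the Cyp4a12 pair, and the next control value was 83.1. At the low dose the values were 20.5, 50.5 and 111, and at the mid dose 23.1, 38.4 and 77.4, with 11 of 13 mice above the control median in each of these groups. The log2FC at the high dose was 1.60 (standard error 0.259, limma adjusted p = 5.78e-05).

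Cyp4a12b was the most variable member. Its lowest, median and highest values were 0.936, 2.99 and 33.6 in the control group, where control replicate 9 was the highest and the next value was 7.68. At the high dose they were 4.17, 14.7 and 52.0. All 14 mice were above the control median and 2 were above the highest control mouse. Of the 14 control mice, 3 were above the lowest high-dose mouse, against 4 for Cyp4a12a. The values were 0, 4.96 and 19.8 at the low dose and 0, 3.81 and 16.3 at the mid dose, with 1 mouse listed at 0 in each group. The log2FC at the highest dose was 1.96 (standard error 0.411, limma adjusted p = 0.00294), which depended on the pseudocount (2.31 with 0.1, 1.29 with 5).

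**Figure D1:**
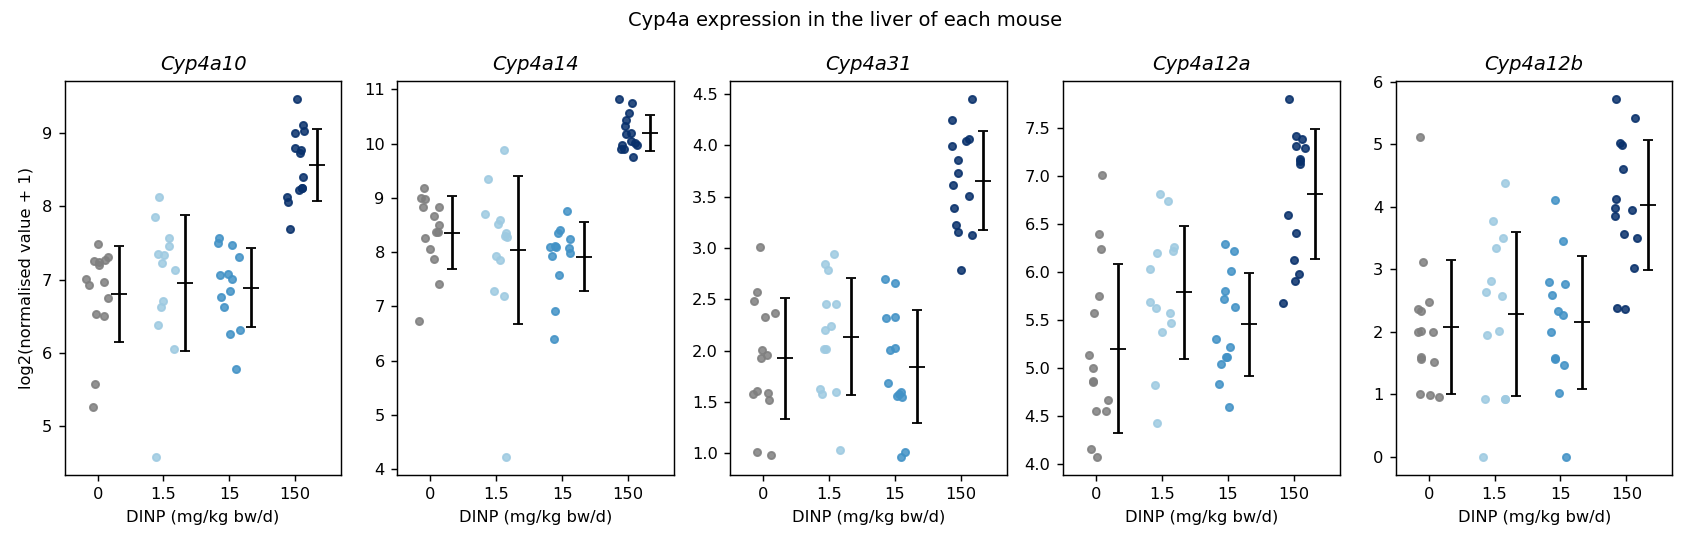
Normalised value of each Cyp4a gene in each mouse on the log2(value + 1) scale, by DINP dose in mg/kg bw/d; points are mice (14, 13, 13 and 14), and the bars beside them show the group mean ± SD on this scale. The high-dose group stands wholly above the control group for Cyp4a10 and Cyp4a14 and overlaps it for the other members.

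All 5 members were called upregulated at the high dose (adjusted p under 0.05 and log2FC over 0.5), against 0.647% of the 11431 genes tested, 74 genes. By size of the log2FC they ranked from 5 (Cyp4a12b) to 12 (Cyp4a12a) among all tested genes. The members and gene lists were chosen with earlier results of these data known. Their counts and ranks beside all genes are therefore a description and not a test of the family. Groups that did not overlap, with the lowest exposed mouse above the highest control mouse, were found for 2 members, Cyp4a10 and Cyp4a14, and for 0.0962% of all genes tested. With values rescaled to the same sum in every sample, 48 genes were higher and 71 lower in place of 74 and 22, and all 5 members were still called higher. The summed value of the family was 186 to 773 in the control group and 1349 to 2733 at the high dose, without overlap. As a part of all values in the table it was 0.0560% ± 0.0190 and 0.176% ± 0.0389 (SD, n = 14 each). A larger part of hepatocyte RNA in a sample and more Cyp4a RNA per hepatocyte cannot be told apart from the bulk values of a gene alone. The 8 hepatocyte markers summed to 23272 to 42649.9 in the control group and 31179 to 41399 at the high dose, and none of them was called (limma, 0 at an unadjusted p under 0.05, 0 by the Wilcoxon test).

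The direct contrasts between doses showed a rise of all 5 members from the mid to the high dose. Against the mid-dose group, the high-dose group had a log2FC of 1.67 for Cyp4a10, 2.28 for Cyp4a14, 1.81 for Cyp4a31, 1.35 for Cyp4a12a and 1.89 for Cyp4a12b. All 5 were called, against 3.44% of all genes called higher in this contrast. Against the low-dose group, all 5 were called as well (0.945% of all genes), with the smallest log2FC for Cyp4a12a (1.02, limma adjusted p = 0.0148) and the largest for Cyp4a14 (2.17, limma adjusted p = 6.37e-06). For Cyp4a10, Cyp4a14 and Cyp4a31, every high-dose mouse was above every mid-dose mouse, as for 0.0875% of all genes tested. At the low dose 2, 1 and 2 of 13 mice, respectively, reached above the lowest high-dose mouse.

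None of the members was called at the low dose, where limma called 0.367% of all genes in either direction, or at the mid dose, where it called 3.72%. The Wilcoxon test called none either. At an unadjusted p under 0.05 there was 1 member at the low dose and there were 0 at the mid dose. The 1 member was Cyp4a12a, with a log2FC of 0.58 (95% interval 0.05 to 1.11, p = 0.0312, limma adjusted p = 0.336). The largest difference the other way was that of Cyp4a14 at the mid dose, with a log2FC of -0.44 (95% interval -1.06 to 0.18, limma adjusted p = 0.370). Between the low and the mid dose no member was called either, with 0 at an unadjusted p under 0.05 and 0 by the Wilcoxon test, against 7.15% of all genes in either direction by limma. The intervals at the lower doses leave room for changes of up to 1.11 (log2) for Cyp4a12a and 1.05 for Cyp4a12b at the low dose, so a small change was not detectable in this design.

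**Figure D2:**
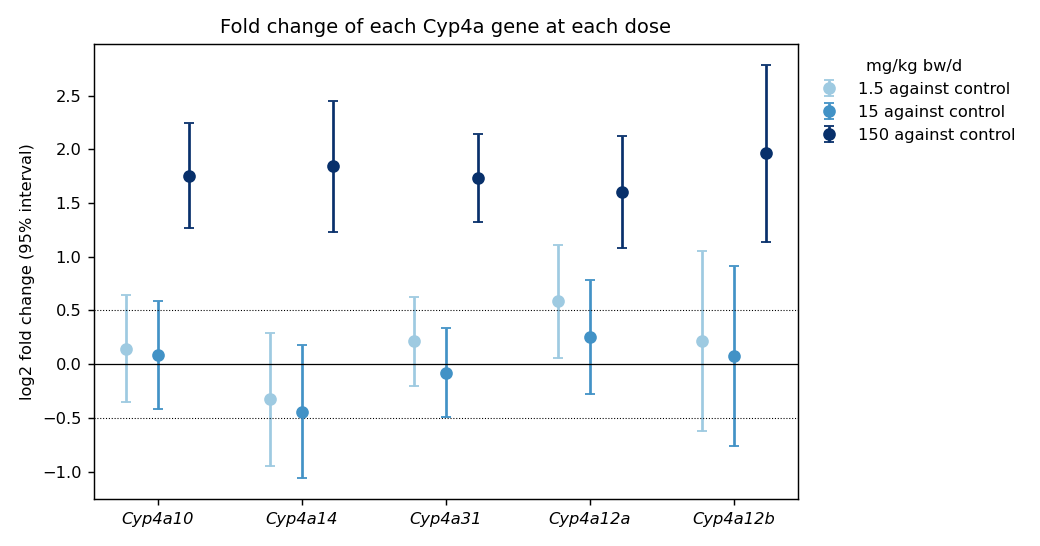
log2FC of each Cyp4a gene at each dose of DINP against control, from light (low dose) to dark (high dose); points are limma estimates on the log2(value + 1) scale, bars are 95% intervals and dotted lines mark a log2FC of 0.5 and -0.5. The intervals at the high dose lie between 1.08 and 2.79 for all 5 genes, and those at the lower doses include 0 except that of Cyp4a12a at the low dose.

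The makeup of the family was compared between the control and the highest dose, since members with a like log2FC keep their proportions. At the high dose, Cyp4a14 held 68.8% ± 6.84 (SD, n = 14) of the family sum, Cyp4a10 22.4% ± 4.50, Cyp4a12a 7.04% ± 3.12, Cyp4a12b 1.08% ± 0.714 and Cyp4a31 0.692% ± 0.165. No share passed the test against the control group (2-sided permutation test with 100000 resamples, adjusted p = 0.914 for each of the 5). The largest difference was that of Cyp4a14, 1.86 percentage points (0.948 to 2.96 when 1 mouse was left out). The per-mouse log2 ratios of the 10 pairs of members gave the same picture, with differences between the groups of -0.36 to 0.24 and adjusted p from 0.849 to 0.921 (2-sided permutation test). The interval was narrowest for Cyp4a10 over Cyp4a14, -0.38 to 0.21, and widest for Cyp4a14 over Cyp4a12b, -1.01 to 0.77, which leaves room for unequal changes of the low members. The ratios to Cyp4a31 depended on the pseudocount: with 5 in place of 1, which lies above most control values of that gene, the differences of Cyp4a10 and Cyp4a14 over Cyp4a31 were 0.64 (adjusted p = 0.0026, permutation test) and 0.75 (adjusted p = 0.0018).

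At the lower doses, single mice had another makeup. In replicate 5 of the low-dose group, Cyp4a12a was the largest member with 62.7% of the family sum and Cyp4a14 was at 10.6%. The Cyp4a14 and Cyp4a10 values of that mouse, 17.7 and 22.9, were the lowest of the group, while its Cyp4a12b value, 19.8, was the highest and its Cyp4a12a value, 105, the second after 111. In replicate 1 of the same group, Cyp4a14 was 938 and Cyp4a10 278, the highest of the group, with Cyp4a12a at its median of 50.5. The range of the Cyp4a14 share was 10.6% to 73.5% at the low dose and 41.5% to 70.7% at the mid dose, against 56.0% to 75.8% in the control group.

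The members also varied widely among mice that received the same dose. After subtraction of the group means, the SD of log2(value + 1) was 0.67 for Cyp4a10, 0.83 for Cyp4a14, 0.55 for Cyp4a31, 0.71 for Cyp4a12a and 1.13 for Cyp4a12b. The median over all genes tested was 0.32, and 84.5% to 98.2% of the genes had a smaller SD than the member in question. For Cyp4a31 and Cyp4a12b, part of this spread can be rounding, as their control values were a few steps of the table.

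Cyp4a10 and Cyp4a14 followed each other from mouse to mouse. Within the control group, Pearson's r was 0.885 (adjusted p = 0.00440 over 40 correlations, permutation test, n = 14), Spearman's rho 0.727 (adjusted p = 0.0438) and r without the 2 outermost mice 0.737. At the low dose, r was 0.978 (adjusted p = 4.00e-04, permutation test, n = 13), rho 0.923 and r without 2 mice 0.946. It did not pass the threshold at the mid dose, with r = 0.674 (adjusted p = 0.0715, permutation test), or at the high dose, with r = 0.496 (adjusted p = 0.178); the difference between the groups was not tested. Cyp4a31 followed Cyp4a10 at the high dose (r = 0.724, adjusted p = 0.0374, permutation test; rho = 0.692, adjusted p = 0.0614; r = 0.589 without 2 mice), and its other correlations with Cyp4a10 did not pass the threshold.

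Cyp4a12a and Cyp4a12b followed each other in the highest dose group. There r was 0.789 (adjusted p = 0.0144, permutation test, n = 14), rho 0.873 (adjusted p = 0.00160) and r without the 2 outermost mice 0.707. In the control group, r was 0.697 (adjusted p = 0.0403, permutation test) and rho 0.657 (adjusted p = 0.0750), and r fell to 0.398 without 2 mice, so that value rests on them. At the low and the mid dose, r was 0.459 and 0.331 (adjusted p = 0.255 and 0.456, permutation test). As the members of this pair share 32.6% of the windows at their 3′ ends, the part of shared reads in these correlations was not tested.

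Between the Cyp4a12 pair and the other members no correlation passed the test. Of the 24 correlations between the 2 subsets, 12 were above 0, none had an adjusted p under 0.05 (permutation test), and their median was 0.025 (range -0.582 to 0.602). By group, 6 of 6 were above 0 at the high dose (0.0650 to 0.592) and 5 of 6 in the control group. At the low dose 0 of 6 were (-0.578 to -0.183), and at the mid dose 1 of 6. The 6 of a group share their mice, and the difference between the groups was not tested. Without the 2 outermost low-dose mice, r of Cyp4a12b became 0.339 with Cyp4a10 and 0.227 with Cyp4a14, and the others stayed below 0. Of the 12 correlations among Cyp4a10, Cyp4a14 and Cyp4a31, 11 were above 0, with a median of 0.604. Cyp4a14 was set with Cyp4a10 and Cyp4a31 after its values were seen, since its coding sequence was as far from Cyp4a10 (76.2% identical) as from Cyp4a12a (76.6%). The difference between the blocks was not tested. Pooled over 54 mice after subtraction of the group means, as a description, r was 0.850 for Cyp4a10 with Cyp4a14, 0.457 for Cyp4a10 with Cyp4a31, 0.576 for Cyp4a12a with Cyp4a12b and -0.177 for Cyp4a14 with Cyp4a12a.

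**Figure D3:**
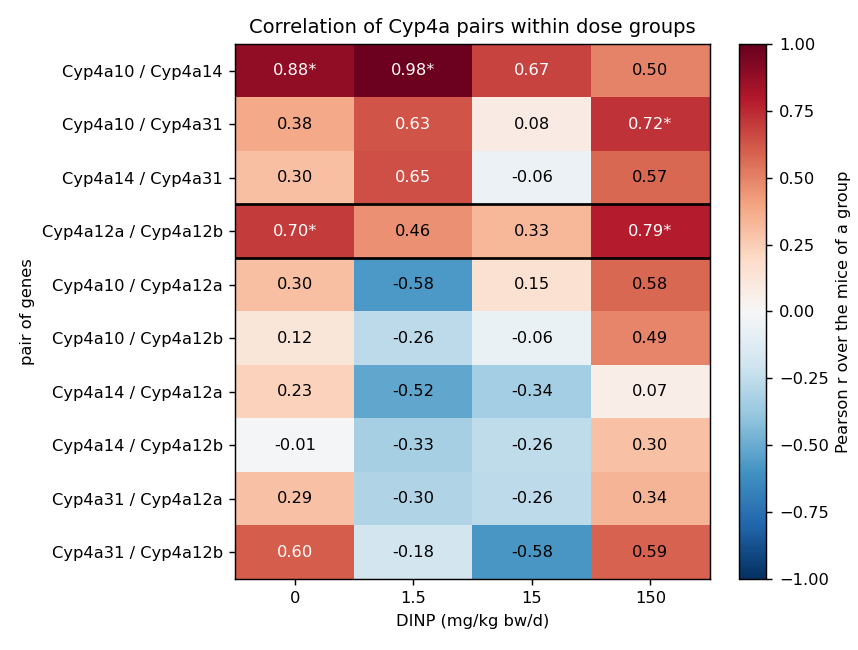
Pearson's r of log2(value + 1) for the 10 pairs of Cyp4a genes (rows) over the mice of each dose group (columns, DINP in mg/kg bw/d); stars mark an adjusted p under 0.05 in the permutation test, and black lines separate the pairs among Cyp4a10, Cyp4a14 and Cyp4a31, the Cyp4a12 pair and the pairs between them. Stars stand in 5 cells, all of them within the upper blocks, and the lower block holds values from -0.58 to 0.60.

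The genes most like each member across the 54 mice differed between the members. These are correlations after subtraction of the group means, given as a description without a test; all genes of a mouse share a library and its scaling. Among the genes most like Cyp4a10 and Cyp4a14 was Acot1, a cytosolic acyl-CoA thioesterase (0.644 and 0.681), with Gm4952 for Cyp4a10 (0.615) and Ildr2 for Cyp4a14 (0.664). For Cyp4a12b it was C6, a component of the terminal complement pathway (0.855), followed by Serpina1e, an antitrypsin gene (0.831), and Egfr, the receptor of epidermal growth factor (0.827). Cyp4a12a had lower values, led by Fgfr2 (0.525), Pdia5 (0.522) and Apom (0.522), and so had Cyp4a31, led by Desi2 (0.588), Dop1b (0.573) and Rab30 (0.569).

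Pooled over the 4 groups, the members also differed against whole lists of liver genes. Over 19 PPARα targets, the median r was 0.189 for Cyp4a10 (16 of 19 above 0), 0.265 for Cyp4a14 (17 of 19) and 0.376 for Cyp4a31 (17 of 19), but -0.148 for Cyp4a12a (3 of 19) and -0.288 for Cyp4a12b (2 of 19). Over 10 genes known to be higher in male liver, such as the sex steroid enzyme gene Hsd3b5 and the major urinary protein gene Mup20, the median r was 0.604 for Cyp4a12b (10 of 10 above 0) and 0.333 for Cyp4a12a (9 of 10). It was 0.058 for Cyp4a10, -0.074 for Cyp4a14 and -0.246 for Cyp4a31. Over all genes tested, the median r was between -0.009 and 0.004 for each member, with 47.8% to 50.7% of genes above 0. Over 5 genes known to be higher in female liver, r with Cyp4a12b was below 0 for all 5 (median -0.510, lowest -0.829 for Cyp2b9, a female-biased P450).

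These patterns were not alike in all groups. At the high dose the median r with the 10 male-biased genes was above 0 for every member: 0.369 for Cyp4a10, 0.319 for Cyp4a14, 0.424 for Cyp4a31, 0.538 for Cyp4a12a and 0.780 for Cyp4a12b. Of the 19 PPARα targets, 13, 10, 12, 10 and 7 were above 0 at that dose, in the same order of members. The median r with these targets was 0.0908, 0.140, 0.157, 0.0337 and -0.102. The Cyp4a12 pair thus still had the lowest medians with PPARα targets and the highest with male-biased genes. Of the medians with these lists at that dose, only that of Cyp4a12b with PPARα targets was below 0. In the control group, Cyp4a10 and Cyp4a14 had a median r of 0.265 and 0.302 with the male-biased genes, and Cyp4a12b one of -0.0999 (3 of 10 above 0), with replicate 9 carrying its high value. At the low dose, the median r with the male-biased genes was -0.288 for Cyp4a10, -0.338 for Cyp4a14 and -0.376 for Cyp4a31, and 0.403 for Cyp4a12a and 0.910 for Cyp4a12b. At the mid dose it was 0.197, 0.175, -0.549, 0.250 and 0.662, in the same order. The differences between the groups were not tested.

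**Figure D4:**
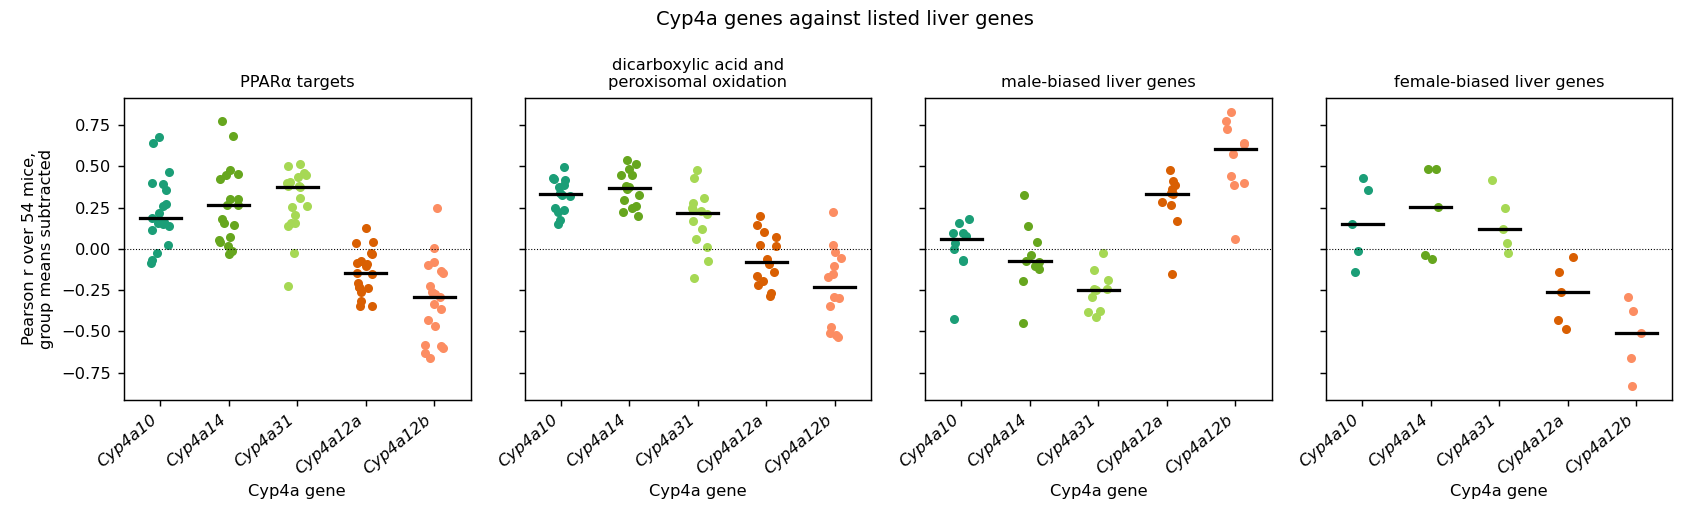
Pearson's r over 54 mice, after subtraction of the group means, of each Cyp4a gene with the genes of 4 lists; points are list genes (19, 14, 10 and 5) and black bars are medians. Cyp4a10, Cyp4a14 and Cyp4a31 lie mostly above 0 against PPARα targets and peroxisomal genes, and Cyp4a12b lies above 0 against all 10 male-biased genes and below 0 against all 5 female-biased genes.

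The other genes of omega-oxidation were compared in the same fit, ordered from the hydroxylation to the peroxisome. Of the other CYP4 genes, which include the Cyp4f enzymes of leukotriene and fatty acid hydroxylation, 10 of 18 listed were in the table and 6 were tested. None was called at the high dose (limma; 1 at an unadjusted p under 0.05, 0 by the Wilcoxon test), and their median log2FC was 0.15 against 1.76 for the 5 members. Of 11 other fatty acid hydroxylase and epoxide genes tested, such as those of the Cyp2c and Cyp2j families, none was called at this dose either (4 at an unadjusted p under 0.05, 0 by the Wilcoxon test). At the mid dose, where 1.85% of all genes were called higher, 1 of these was called, Cyp2j9 (log2FC 0.54, limma adjusted p = 0.0413), a call lost in 15 of 27 fits that left out 1 mouse.

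The redox partners of the P450 enzymes were not called with them. Por, the reductase itself, had lowest, median and highest values of 58.9, 101 and 201 in the control group and 87.5, 150 and 286 at the high dose, which overlap. Its log2FC was 0.43 (95% interval 0.09 to 0.76, limma adjusted p = 0.191). Of 6 partners tested, 0 were called at this dose (2 at an unadjusted p under 0.05, 0 by the Wilcoxon test). At the mid dose, where no Cyp4a member and 1.85% of all genes were called higher, the haem-binding P450 partner Pgrmc1 was called higher (log2FC 0.63, limma adjusted p = 0.000754). The 7 alcohol and aldehyde dehydrogenases of the next steps were likewise not called at the high dose (2 at an unadjusted p under 0.05, 0 by the Wilcoxon test), and Adh4 was called at the mid dose (log2FC 0.56, limma adjusted p = 0.0140). The log2FC of Aldh9a1 passed the adjusted p at the high dose but not the size (0.31, limma adjusted p = 0.00103). Aldh9a1 was also the 1 gene of these 7 with a limma adjusted p under 0.05 at the low dose, where 0 were called. At the mid dose 3 of the 7 had an adjusted p under 0.05, Adh4 among them. The paper describes a mild rise of Aldh9a1 at every dose.

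The activation, transport and peroxisomal oxidation of fatty acids and dicarboxylic acids was the step at which more genes rose beside the Cyp4a members. Of 14 genes tested, 6 were called higher at the high dose and 0 lower, against 0.647% of all genes higher, and none was called at the lower doses (limma; 0 by the Wilcoxon test at both doses, with 3 genes at an unadjusted p under 0.05 at each). Ehhadh, the peroxisomal bifunctional enzyme of dicarboxylic acid oxidation, had lowest, median and highest values of 10.6, 14.2 and 30.03 in the control group and 33.0, 48.9 and 73.1 at the high dose, without overlap. Its log2FC was 1.54 (standard error 0.122). Acot3 and Acot4, peroxisomal thioesterases, had a log2FC of 1.19 and 0.63, Acsl1, a long-chain acyl-CoA synthetase, 0.72, and Slc27a2, a very long-chain acyl-CoA synthetase and transporter, 0.56.

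Ppara, the gene of the receptor, was the 1 gene called of 9 receptor and cofactor genes tested at the high dose, where 0.647% of all genes were called higher. Its lowest, median and highest values were 82.1, 134 and 187 in the control group and 134, 196 and 264 at the highest dose, with a log2FC of 0.58 (standard error 0.118, limma adjusted p = 0.00187). It was not called with values rescaled to the same sum or with array quality weights. Of 19 other PPARα targets, 5 were called higher and 0 lower, against 0.647% of all genes higher. The 5 were the thioesterases Acot1 (log2FC 1.54) and Acot2 (1.29), the lipase inhibitor Angptl4 (1.47), the thioredoxin-binding gene Txnip (1.06) and the peroxisome division gene Pex11a (0.86). The median log2FC over all 19 targets was 0.33, below the log2FC of each Cyp4a member. At the mid dose 2 of the 19 targets were called higher, against 1.85% of all genes: Angptl4 (0.55) and the fatty acid binding protein gene Fabp1 (0.87). The Wilcoxon test called 0, 2 targets were lower at an adjusted p under 0.05 without passing the size (the lipid droplet gene Plin5, -0.43, and the acyl-CoA dehydrogenase gene Acadm, -0.40), and the median log2FC of the list was -0.07.

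Sex-biased liver genes were counted because Cyp4a12a is one of them. Of 10 male-biased genes tested at the high dose, 0 were called (limma; 1 at an unadjusted p under 0.05, 0 by the Wilcoxon test), with a median log2FC of 0.28. Of 5 female-biased genes, 1 was called higher, against 0.647% of all genes tested: Acot3, which also stands in the peroxisomal list. At the mid dose, where 1.85% of all genes were called higher, 1 male-biased gene was called, Nudt7, a peroxisomal coenzyme A hydrolase gene (log2FC 0.82, limma adjusted p = 0.00248). The low dose, with 0.367% of all genes called in either direction, had 0 calls among the 10 male-biased genes by limma or the Wilcoxon test. There 3 of them were higher at an unadjusted p under 0.05 (limma). Their median log2FC at the low dose was 0.47, with 9 of 10 above 0. That of the 5 female-biased genes was -0.36, with 1 of 5 above 0 and 0 called. The lists were not tested as wholes.

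**Figure D5:**
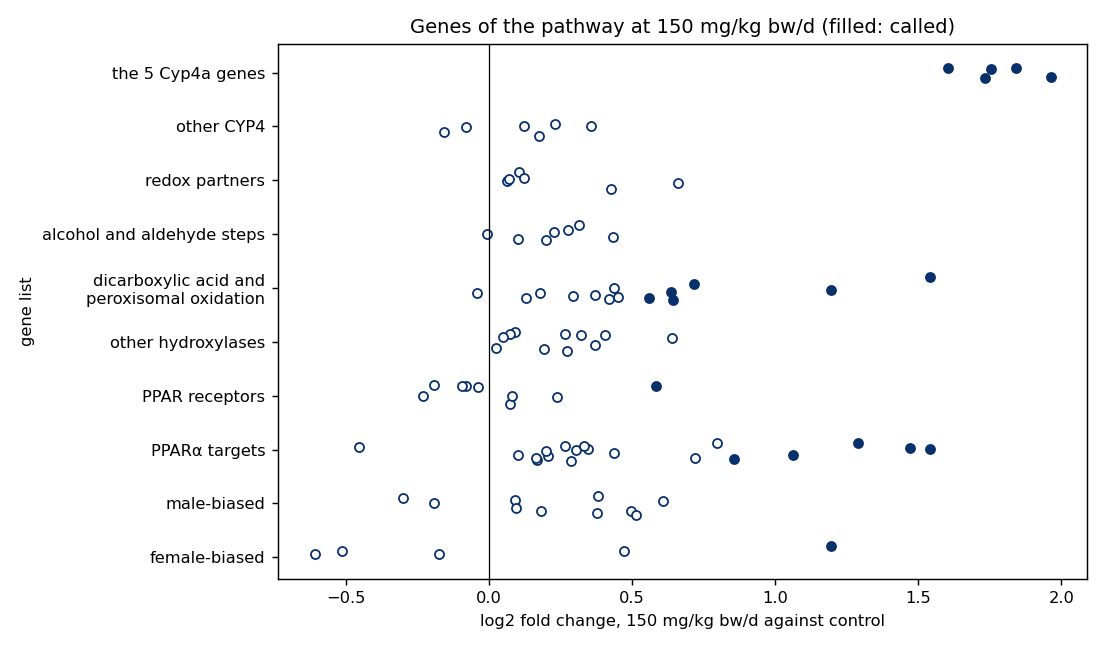
log2FC at the high dose against control of the genes tested in each list (rows); each circle is 1 gene, filled where it was called (adjusted p under 0.05 and log2FC beyond 0.5 by limma). The 5 Cyp4a genes lie between 1.60 and 1.96, beyond every gene of the other lists, and filled circles stand in the peroxisomal, PPAR receptor, PPARα target and female-biased lists.

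Markers of other cell types were followed in the same samples. Of the lists for Kupffer cells, endothelium, stellate cells, bile ducts, lymphocytes and the pericentral and periportal zones of the lobule, no gene was called at the high dose (limma; 1 lymphocyte, 1 pericentral and 2 periportal genes at an unadjusted p under 0.05, 0 by the Wilcoxon test). The summed adipocyte markers were 2.80 to 13.1 in the control group and 7.14 to 56.9 at the high dose. Of the 2 adipocyte markers tested, Cfd, the complement protease adipsin, was called (log2FC 2.07, limma adjusted p = 0.00335), a call lost with a pseudocount of 0.1. Adrb3, a beta-adrenergic receptor gene, had a log2FC of 0.40 (95% interval 0.05 to 0.74, p = 0.0244, limma adjusted p = 0.260). The defining fat cell genes Adipoq, Retn and Plin1 had medians of 0 in both groups and Lep was at 0 in all 28 mice. Of the kidney tubule markers, 0 of 4 were in the table. The sums over all values were 747258 to 1012952 in the control group and 944620.4 to 1037174 at the high dose, and the part of this difference in the Cyp4a values was tested by the rescaling given above.

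Control replicate 8, which had the lowest sum of values, and replicate 7 of the mid-dose group, which was least like its own group, stood apart from the other libraries. Without these 2 mice, an alternative chosen after the data were seen, all 5 members were still called at the high dose and none at the lower doses, with a log2FC of 1.66 for Cyp4a10 and 1.99 for Cyp4a12b. No single mouse decided a call: in 28 fits that each left out 1 control or high-dose mouse, the log2FC at the high dose was between 1.52 and 2.20 for all members.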

How the data were processed

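Liver RNA (medial lobe) was sequenced by the authors with QuantSeq 3′ mRNA-Seq libraries and processed with nf-core/rnaseq (STAR, RSEM, Salmon) on GRCm38; the annotation release is not given in the sources used here. The deposited table is labelled TPM. Its values were used as a signal scaled between samples by the authors: divided by a step particular to the sample (0.764 to 1.11), they come out whole (largest distance from a whole number 6.66e-05), with sums of 948342 to 980641. In control mice, 2644 genes with means of 2 to 5 had a median variance-to-mean ratio of 0.366, so the steps were not read as reads, and no count test was run. The depth is unknown.

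Each mouse was assigned to its group by its label. Rows with a mean of at least 1 (11431 of 20162) were tested with limma 3.58.1 (R 4.3.3; lmFit, eBayes with trend) on log2(value + 1), all 4 groups in 1 fit, with Benjamini-Hochberg adjustment; a gene was called at an adjusted p under 0.05 and a log2FC beyond 0.5. Shares and pair ratios were compared by 2-sided permutation tests with 100000 resamples, and correlations within groups by permutation, adjusted over 40. Scripts were checked on simulated data. Sequences were read from GENCODE transcripts (GRCm38) and aligned with Biopython 1.88; 1 transcript per gene was used. The members and gene lists were chosen with earlier results of these data known. Named are the 5 members, list genes called at any dose with Ppara and Por, and the 3 genes with the highest correlation with each member, and some of these genes are not reported here; Aldh9a1, Plin5, Acadm and the fat cell genes were named after their values were seen. Cell type markers were taken from textbook knowledge. Alternatives were other pseudocounts, filters, scalings, weights, groups in the fit, a Wilcoxon test, a replicate block and leaving out each mouse.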

Additional observations from a re-analysis of the deposited data

How the results depend on the processing

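All 5 members stayed called at 150 mg/kg bw/d (against control, 1.5 and 15 mg/kg bw/d), and none was called in the other contrasts, under every alternative and in every fit that left out 1 mouse. Replicate numbers do not pair the mice: over 79 pairs of same-numbered samples, the deviations from the group means had a mean correlation of -0.0025, and 12.7% of pairs were above 0.1. With the replicate block, 5 members were called at 150 mg/kg bw/d (Cyp4a10 log2FC 1.76, limma adjusted p = 7.39e-06), 72 genes were called higher in all, and at 15 mg/kg bw/d 0 hydroxylases in place of 1. The 1 hydroxylase called at 15 mg/kg bw/d was also lost (0 called) with pseudocounts of 0.1 and 5, without a filter, with a minimum mean of 5, with rescaling to a common sum, with the 2 groups alone, with array quality weights and by the Wilcoxon test; leaving out 1 mouse gave 0 to 1. At that dose, PPARα targets called went from 2 to 1 with a pseudocount of 5, 0 by the Wilcoxon test and 1 to 2 without 1 mouse; male-biased genes from 1 to 2 with rescaling and 1 to 2 without 1 mouse; redox partners from 1 to 0 with array weights; and dehydrogenases from 1 to between 0 and 2 without 1 mouse. At 150 mg/kg bw/d, Ppara was lost (0 called) with rescaling and with array weights, and the female-biased gene (0 called) by the Wilcoxon test. Genes called higher at 150 mg/kg bw/d were 44 with a pseudocount of 5 and 48 with rescaling, in place of 74.

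No difference in a pair ratio was called at the pseudocount of 1, and several changed sign. Cyp4a10 over Cyp4a31 was -0.16 as a difference of medians, -0.30 with a pseudocount of 0.1 and 0.64 with 5, and -0.12 to 0.085 without 1 mouse. Cyp4a14 over Cyp4a31 was -0.22, then 0.75 (pseudocounts 0.1 and 5), and -0.061 to 0.18 without 1 mouse. Cyp4a10 over Cyp4a12a was -0.14 as a difference of medians. With a pseudocount of 5, Cyp4a10 over Cyp4a12b was 0.43, Cyp4a14 over Cyp4a12b 0.54 (-0.33 to 0.019 without 1 mouse), Cyp4a31 over Cyp4a12a -0.41 and Cyp4a12a over Cyp4a12b 0.20. A pseudocount of 5 exceeds most control values of Cyp4a31 and Cyp4a12b. Without 1 mouse, the share difference was -1.10 to 0.164 percentage points for Cyp4a10 and -0.0285 to 0.371 for Cyp4a12b. Uncalled log2FC near 0 changed sign as well: at 15 mg/kg bw/d against control, Cyp4a12b (-0.055 with a pseudocount of 0.1, -0.088 to 0.31 without 1 mouse), Cyp4a10 (-0.034 to 0.18) and Cyp4a31 (-0.15 to 0.0045); and between 15 and 1.5 mg/kg bw/d, Cyp4a10 (0.031 without the 2 libraries that stand apart, -0.26 to 0.036 without 1 mouse), Cyp4a14 (0.0088, -0.44 to 0.035) and Cyp4a12b (-0.33 to 0.041). The correlation of Cyp4a14 with Cyp4a12b in control mice became 0.0264 with a pseudocount of 5 and 0.00668 with rescaling, that of Cyp4a14 with Cyp4a31 at 1.5 mg/kg bw/d passed the threshold with a pseudocount of 5 (0.673), and that of Cyp4a10 with Cyp4a31 at 150 mg/kg bw/d missed it with rescaling (0.691).

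The rounding to whole steps limits Cyp4a31 and Cyp4a12b, whose control medians are about 3 steps, and near-identical 3′ ends limit the split of Cyp4a12a from Cyp4a12b. The labels do not say that mice came from separate litters or batches, and depth per sample cannot be given.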
